A study of Homo sapiens with 6 samples.

Results

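Chemokines are small secreted proteins that draw leukocytes and other cells along a gradient, and their receptors are membrane proteins that signal through inhibitory G proteins. The CXC, CC, XC and CX3C classes are named for the spacing of the first cysteines of the ligand, and the CXC ligands with a glutamate-leucine-arginine (ELR) stretch before these cysteines bind CXCR1 and CXCR2 and attract neutrophils. In pancreatic cancer, epithelial tumor cells are a known source of ELR+ CXC ligands, which are textbook targets of NF-κB. The genes described here are the rows of the RNA-seq table named CCL, CXCL, XCL, CX3CL, CCR or CXCR followed by digits and, in some, L and a digit. This rule found 56 genes of the 25442 in the table, 40 ligands and 16 receptors, and IL8 was among them under the name CXCL8. A gene was counted as expressed when its mean over the 6 libraries, or over the 3 GLI2 libraries, was at least 1 FPKM (fragments scaled to the length of the transcript and to the size of the library). By this measure 17 genes were expressed, 15 ligands and 2 receptors, and 39 were silent, of which 17 were listed at 0 in every library.

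All libraries came from YAPC, a human pancreatic ductal adenocarcinoma line that the study uses as a classical subtype model, kept for 6 days in 1 μg/ml doxycycline (Dox). The 3 YAPC-iGLI2 libraries (YRG) carried pRetroX-Tight-Puro with GLI2, a transcription factor of Hedgehog signalling, and the 3 YAPC-iEV libraries (YRE) carried the same Dox-responsive vector empty. The design text names the cells YAPC-rtta, so that both groups also carry the Dox-dependent activator, and none of these libraries came from cells without Dox. The comparison addresses which transcripts change when GLI2 is induced in cells of the classical subtype, in a study of switching between subtypes. Values of single libraries are given in the order of replicates 1, 2 and 3. The labels do not say whether replicates were separate cultures, so the p-values measure the spread between these libraries, which may be technical. In the sample codes, replicates 1 and 2 of each group share a digit and replicate 3 has another. The letter after the digit is the same in both groups for replicates 1 and 2 and differs for replicate 3. The labels explain neither the digit nor the letter. GLI2 itself reached at most 0.466 FPKM in any iEV library and at least 94.5 FPKM in any iGLI2 library, as their labels have it.

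Summed over all genes, an iEV library held from 981341 to 1082684 FPKM and an iGLI2 library from 803145 to 889555 FPKM, and the number of reads behind a value is unknown. Of 7 epithelial markers, 5 reached 1 FPKM, and KRT8 and KRT18 were listed at 0 in every library although epithelial cells make these keratins, so a 0 in this table is not read as absence. Of 12 leukocyte markers, CD14, CD68 and LYZ reached 1 FPKM, while the pan-leukocyte gene PTPRC had means of 0.0279 (iEV) and 0.0206 (iGLI2) FPKM. The sum of the leukocyte list was between 19.0 and 22.2 FPKM in iEV and between 10.6 and 18.5 FPKM in iGLI2 libraries, with MS4A1 and FCGR3A listed at 0. The sum of 8 fibroblast markers was between 1.54 and 1.65 FPKM in iEV and between 2.46 and 3.13 FPKM in iGLI2 libraries, with COL1A1 as the only gene that reached 1 FPKM and DCN listed at 0, and none of 5 endothelial markers reached 1 FPKM. The part of these differences in the results was not tested.

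The groups were compared on log2(FPKM + 1) with limma, two-sided, over the 12493 genes whose mean reached 1 FPKM, and p-values were adjusted by Benjamini-Hochberg over all of these and held against 0.05. Adding 1 understates the change of genes with low values. Among the chemokine genes 16 passed the filter, and 2 rose and 3 fell, which is 5 genes against a background of 21.9% of all genes tested (10.1% higher and 11.8% lower). A change of at least 2-fold was found among these for 2 genes higher and 2 lower, where 2.59% of all genes tested were higher and 1.62% lower by as much. CXCR4 and CCL24 passed the filter only through their iGLI2 values and CXCL6 only through its iEV values, so they had to differ, and the counts are given as a description. The median log2 fold change was -0.38 over the 16 genes and -0.015 over all genes tested. The median of the 16 depended on single libraries, and went to -0.12 without iGLI2 replicate 1 and to -0.54 without iEV replicate 1 or without iGLI2 replicate 2. Groups did not overlap for 9 of the 16 genes, 2 higher and 7 lower in iGLI2 cells, where 42% of all genes tested had groups that did not overlap, 19.2% higher and 22.8% lower. In the fit the genes thus fall into those that rose in cells with GLI2 (CXCR4, CCL24), those that fell (CXCL5, CXCL16, CCL28), and 11 that did not pass the test, among them the most abundant, CXCL8.

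**Figure D1:**
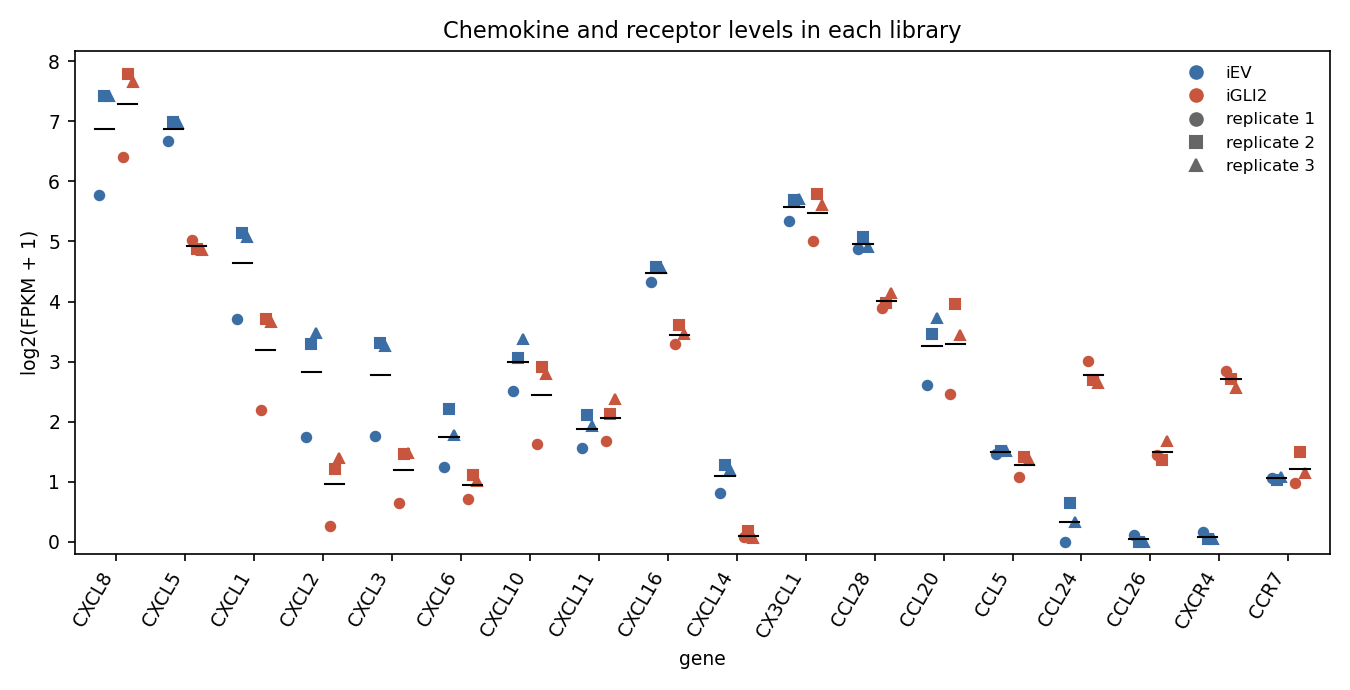
Level of 18 chemokine and receptor genes, as log2(FPKM + 1) on the vertical axis, in each of the 6 libraries (blue iEV, red iGLI2, marker shape for the replicate number, black bar for the mean of 3 libraries). CXCL8, CXCL1, CXCL2 and CXCL3 are low in replicate 1 of both groups, while CXCL5, CXCL16, CCL28, CXCR4 and CCL24 separate the groups with little spread.

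All 6 ELR+ CXC ligands with a CXCL name were expressed. They lie together on chromosome 4 of hg19, within 358.8 kb from the start of the CXCL8 locus at 74606223 to the end of the CXCL2 locus at 74964997. The promoter sequence is shown because all 6 hold the same 9 letters within 100 bases of the RefSeq start. The lines give bases 100 to 41 before the RefSeq start of each gene, 5′ to 3′ on the strand of the gene, and capitals mark matches to GGNNTTTCC, a form of the NF-κB (κB) motif.

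CXCL8: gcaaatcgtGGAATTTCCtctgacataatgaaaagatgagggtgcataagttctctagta
CXCL5: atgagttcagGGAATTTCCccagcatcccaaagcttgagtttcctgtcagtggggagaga
CXCL6: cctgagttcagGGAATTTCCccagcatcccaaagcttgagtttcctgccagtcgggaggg
CXCL1: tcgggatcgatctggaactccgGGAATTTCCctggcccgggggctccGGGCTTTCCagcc
CXCL2: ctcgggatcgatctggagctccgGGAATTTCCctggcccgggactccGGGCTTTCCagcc
CXCL3: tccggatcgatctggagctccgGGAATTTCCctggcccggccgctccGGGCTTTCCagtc

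Each stretch was found letter for letter, and once, on its chromosome in GRCh37. The RefSeq starts used here differ from the ends of the loci listed with the FPKM values. Against those loci, the stretch of CXCL6 lies inside and that of CXCL1 outside. The stretches of CXCL8, CXCL5, CXCL2 and CXCL3 reach partly into their loci. The places are chr4:74606186-74606245 (plus strand) for CXCL8, chr4:74864435-74864494 (minus) for CXCL5, chr4:74702295-74702354 (plus) for CXCL6, chr4:74735010-74735069 (plus) for CXCL1, chr4:74964953-74965012 (minus) for CXCL2 and chr4:74904447-74904506 (minus) for CXCL3. The shared GGAATTTCC begins 91 bases before the start in CXCL8, 90 in CXCL5, 89 in CXCL6, 78 in CXCL1 and CXCL3 and 77 in CXCL2. CXCL1, CXCL2 and CXCL3 hold a further match, GGGCTTTCC, that begins 53 bases before the start. Over the 250 bases before the start and on both strands, 6.69% of the 27305 genes of the RefSeq promoter table (GRCh38.p14) hold a match to GGNNTTTCC. A promoter was found for 14 of 18 genes (the expressed ones and CXCL14), without CCL5, CCR7, CX3CL1 and CXCL16, and 10 of the 14 hold such a match in at least 1 of their windows. These are CXCL8, CXCL1, CXCL2, CXCL3, CXCL5, CXCL6, CXCL10, CXCL11, CCL20 and CXCR4. A match describes the letters and is not a sign of binding.

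CXCL5, a neutrophil attractant, was the ELR+ ligand that passed the test. It was at 101, 127 and 124 FPKM in the iEV replicates and at 31.4, 28.4 and 27.8 FPKM in the iGLI2 replicates. The groups were far apart and every library of a group was close to the others. The iEV mean was 117 ± 14.3 and the iGLI2 mean 29.2 ± 1.93 FPKM (SD, n = 3 each). This is a log2 fold change of -1.96 (SE 0.11, adjusted p = 3.30e-04 by limma), SE being the standard error, and it ranked 92 of 12493 from the bottom. In bulk RNA a smaller number of cells with a transcript and less of it per cell cannot be told apart.

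CXCL8, which encodes interleukin 8, was the highest member in every iGLI2 library and in iEV replicates 2 and 3, with CXCL5 the highest in iEV replicate 1. Its level was 53.6, 170 and 171 FPKM in the iEV replicates and 83.8, 220 and 201 FPKM in the iGLI2 replicates. Replicate 1 was far below the others in both groups, and the groups overlapped. The log2 fold change of 0.41 had a 95% interval from -1.003 to 1.83 (adjusted p = 0.653 by limma), so that neither a fall nor a rise was shown in this fit. It was -0.14 without iEV replicate 1.

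CXCL1, CXCL2 and CXCL3, the closely related GRO chemokines, were lower in iGLI2 cells by their means, with a spread too wide for the test without a block. CXCL1 had 12.004, 34.1 and 32.8 FPKM in the iEV replicates and 3.56, 12.1 and 11.6 FPKM in the iGLI2 replicates. The groups overlapped, since the low iEV replicate 1 lay just under iGLI2 replicate 2. The log2 fold change was -1.45 (95% interval from -2.83 to -0.080, adjusted p = 0.124 by limma). CXCL2 had 2.33, 8.77 and 10.1 FPKM in the iEV replicates and 0.195, 1.30 and 1.64 FPKM in the iGLI2 replicates. CXCL3 had 2.39, 8.90 and 8.59 FPKM in the iEV replicates and 0.557, 1.75 and 1.78 FPKM in the iGLI2 replicates. In CXCL2 and CXCL3 every iGLI2 library lay below every iEV library. Their log2 fold changes were -1.88 (adjusted p = 0.0557 by limma) for CXCL2 and -1.59 (adjusted p = 0.0635 by limma) for CXCL3. A fit with the replicate number as a block assumes a pairing that the labels do not state. There the adjusted p by limma was 0.00206 for CXCL1, 0.00497 for CXCL2 and 0.00870 for CXCL3, each lower in iGLI2 cells.

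CXCL6, a further neutrophil attractant, had 1.37, 3.60 and 2.41 FPKM in the iEV replicates and 0.630, 1.17 and 1.03 FPKM in the iGLI2 replicates. The groups did not overlap, and the log2 fold change was -0.79 (adjusted p = 0.0790 by limma). Without iEV replicate 1, CXCL2 (adjusted p = 0.0176 by limma), CXCL3 (0.0138) and CXCL6 (0.0290) passed the threshold as lower and CXCL1 (0.0672) did not. With any of the other 5 libraries left out, none of CXCL2, CXCL3 and CXCL6 passed, and without iEV replicate 2 their adjusted p by limma was 0.175, 0.193 and 0.179. Members of this group share sequence, and 9.63% of the 50-base stretches of CXCL2 transcripts also occur in CXCL3 and 4.57% of those of CXCL1 in CXCL2, so part of their reads may have been split between them.

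The level of the group varied between libraries of the same cells. Of the 17 expressed genes, 12 were lowest in replicate 1 of both groups, where 33.9% of all genes tested were. On the log2(FPKM + 1) scale, the difference of iEV replicate 1 from the mean of iEV replicates 2 and 3 was -1.65 for CXCL8, -1.40 for CXCL1, -1.64 for CXCL2 and -1.53 for CXCL3. Among the iGLI2 libraries the same difference was -1.32 for CXCL8, -1.496 for CXCL1, -1.05 for CXCL2 and -0.83 for CXCL3. The NF-κB inhibitors NFKBIA, at 114 FPKM in iEV replicate 1 and at 199 and 198 FPKM in iEV replicates 2 and 3, and TNFAIP3, at 5.40 FPKM against 10.6 and 10.3 FPKM, were low in the same library. iGLI2 replicate 1, with 76.0 FPKM of NFKBIA against 138 and 139 FPKM, and 2.48 FPKM of TNFAIP3 against 5.62 and 5.50 FPKM, was also the lowest of its group. Both genes were picked after their values were seen, from an NF-κB list described below whose genes did not all do so. CHUK was highest in replicate 1 of both groups, at 21.3 FPKM against 19.0 and 18.1 FPKM in iEV and 23.6 FPKM against 21.4 and 21.0 FPKM in iGLI2 libraries. The part of these differences between replicates in the results was not tested.

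A ratio within a library is free of its scaling, so each ELR+ ligand was also set against CXCL8 of the same library, a measure chosen after the values were seen. CXCL1 was at 22.4, 20.04 and 19.1% of CXCL8 in iEV replicates 1, 2 and 3 and at 4.24, 5.51 and 5.76% in iGLI2 replicates 1, 2 and 3. The spread within a group was now small and the groups did not overlap. On the log2 scale the ratio was -2.29 ± 0.12 in iEV and -4.29 ± 0.24 in iGLI2 cells (SD, n = 3 each), 3.996-fold lower. CXCL3 was at 4.45, 5.23 and 5.01% of CXCL8 in the iEV replicates and at 0.664, 0.798 and 0.882% in the iGLI2 replicates, 6.30-fold lower. For CXCL2 the ratio was 4.35, 5.16 and 5.90% in the iEV replicates and 0.233, 0.593 and 0.814% in the iGLI2 replicates, 10.6-fold lower. Its spread was wide in iGLI2 cells, with an SD of 0.94 on the log2 scale. CXCL6 went from between 1.41 and 2.56% to between 0.510 and 0.751% of CXCL8, 3.35-fold lower.

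CXCL5 behaved otherwise, since its ratio was highest in replicate 1. It was at 188, 74.4 and 72.4% of CXCL8 in the iEV replicates and at 37.5, 12.9 and 13.8% in the iGLI2 replicates, 5.33-fold lower. The SD on the log2 scale was 0.78 in iEV and 0.86 in iGLI2 cells. All 5 ratios had groups that did not overlap, and in the exact permutation test over libraries each reached p = 0.1 (two-sided, also after adjustment over the 5), the smallest that 3 libraries against 3 allow, so none can pass 0.05. The ratios thus describe these libraries, and an unequal change of the genes was not established by the test. They share CXCL8, and do not show which of the 2 genes of a ratio changed. CXCL8 accordingly held 31.1, 48.3 and 49.0% of the summed FPKM of the 6 ligands in the iEV replicates and 69.8, 83.1 and 82.1% in the iGLI2 replicates.

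**Figure D2:**
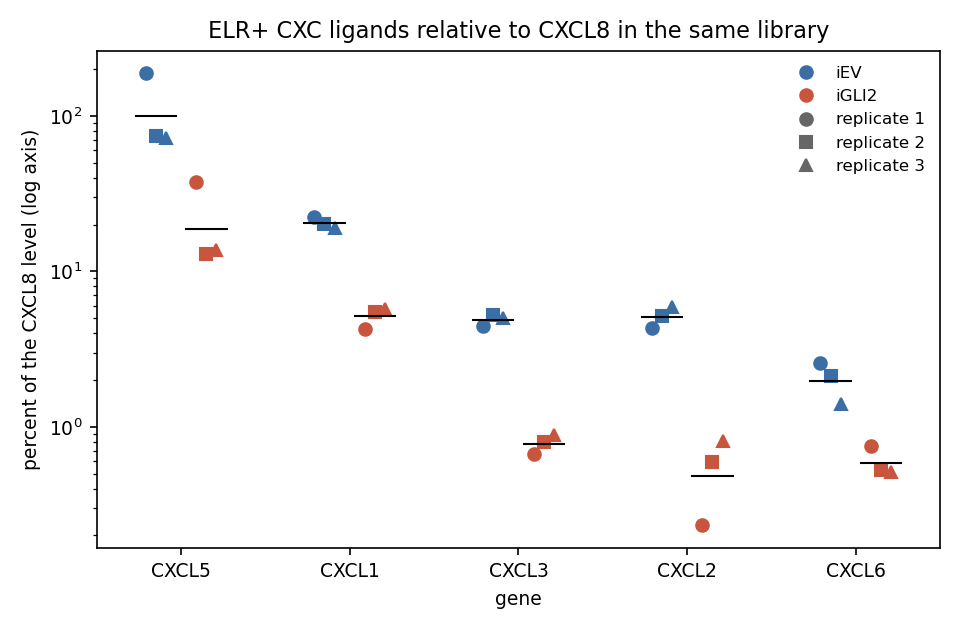
Level of CXCL5, CXCL1, CXCL3, CXCL2 and CXCL6 as a percent of the CXCL8 level of the same library, on a log axis, for 3 iEV (blue) and 3 iGLI2 (red) libraries, with the marker shape for the replicate number and a black bar for the geometric mean. Each gene is lower in every iGLI2 library than in any iEV library, and for CXCL1 the iEV libraries sit between 19.1 and 22.4%, the iGLI2 libraries between 4.24 and 5.76%.

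Between these ligands on chromosome 4 lie the platelet chemokines PF4V1, PF4 and PPBP, which bear CXC cysteines but other names and were no members. PF4V1 had 0.995, 1.43 and 1.13 FPKM in the iEV replicates and 0.347, 0.719 and 0.784 FPKM in the iGLI2 replicates. PF4 had 1.14, 0.843 and 1.13 FPKM in the iEV and 0.353, 0.613 and 0.272 FPKM in the iGLI2 replicates. Both were low with groups that did not overlap, both lay under the filter and were not tested, and PPBP was at or near 0. From CXCL6 to CXCL2, the mean of every gene of the stretch that had a value was lower in iGLI2 than in iEV cells, and CXCL8 at its end was not.

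**Figure D3:**
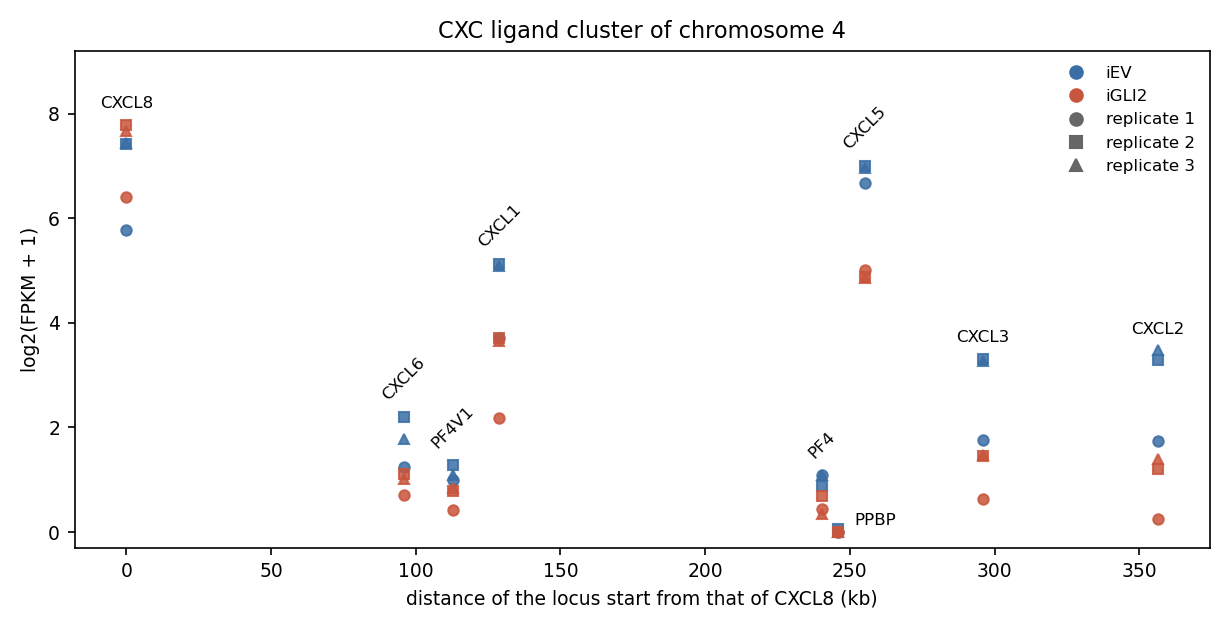
Level as log2(FPKM + 1) of 9 CXC ligand genes of chromosome 4 against the distance of each locus start from that of CXCL8 in kb, for 3 iEV (blue) and 3 iGLI2 (red) libraries, with the marker shape for the replicate number. At CXCL5, 255 kb from CXCL8, all iGLI2 libraries lie below all iEV libraries, and at CXCL8 the groups overlap.

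The interferon-inducible ligands CXCL10 and CXCL11, which attract activated T cells through CXCR3, did not pass the test. CXCL10 had 4.70, 7.38 and 9.44 FPKM in the iEV replicates and 2.099, 6.53 and 5.92 FPKM in the iGLI2 replicates, with a log2 fold change of -0.54 (95% interval from -1.51 to 0.43, adjusted p = 0.387 by limma). CXCL11 had 1.96, 3.33 and 2.81 FPKM in the iEV and 2.21, 3.36 and 4.201 FPKM in the iGLI2 replicates, and its log2 fold change was 0.19 (95% interval from -0.35 to 0.73, adjusted p = 0.577 by limma). The groups overlapped in both, and the table gives both the same locus, which spans their neighbours. CXCL9, the third ligand of the group, stayed at or under 0.0433 FPKM.

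CXCL16 and CX3CL1 are made as membrane-bound proteins with a chemokine head on a mucin stalk, and shedding releases the head. CXCL16, the ligand of CXCR6 on chromosome 17 from 4634703 to 4643223, had 19.0, 22.8 and 22.5 FPKM in the iEV replicates and 8.76, 11.2 and 9.97 FPKM in the iGLI2 replicates. Every iGLI2 library was well below every iEV library. It fell by 1.03 on the log2 scale (SE 0.11, adjusted p = 0.00240 by limma), from a mean of 21.4 ± 2.14 to 9.98 ± 1.22 FPKM (SD, n = 3 each). CX3CL1, or fractalkine, had 39.6, 50.6 and 51.1 FPKM in the iEV and 31.2, 54.5 and 47.8 FPKM in the iGLI2 replicates. Its groups overlapped and its log2 fold change of -0.11 had a 95% interval from -0.65 to 0.43 (adjusted p = 0.763 by limma).

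CXCL14, a CXC ligand of epithelia, was silent by the rule, because its mean was under 1 FPKM in iGLI2 cells and over all libraries. It had 0.751, 1.43 and 1.29 FPKM in the iEV replicates and 0.0509, 0.126 and 0.0468 FPKM in the iGLI2 replicates. All iGLI2 libraries lay below all iEV libraries, and in the fit without the filter, where 15.1% of 20035 genes passed, the log2 fold change was -0.99 (adjusted p = 0.00656 by limma). The mean FPKM was 15.6-fold lower, a larger number than the log2(FPKM + 1) scale gives at such levels.

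CCL28, an epithelial ligand of CCR3 and CCR10 in mucosal tissue, fell. On chromosome 5 from 43376748 to 43412493, it had 28.4, 32.6 and 28.9 FPKM in the iEV replicates and 13.8, 14.8 and 16.6 FPKM in the iGLI2 replicates. The groups were apart by more than their spread, with a log2 fold change of -0.95 (SE 0.091, adjusted p = 0.00158 by limma). CCL20, the ligand of CCR6, had 5.11, 10.0 and 12.2 FPKM in the iEV and 4.53, 14.6 and 9.93 FPKM in the iGLI2 replicates. Replicate 1 was lowest in both groups, and the log2 fold change of 0.028 had a 95% interval from -1.08 to 1.14 (adjusted p = 0.974 by limma). CCL5, also called RANTES, was near the lower limit, with 1.74, 1.86 and 1.85 FPKM in the iEV and 1.11, 1.65 and 1.58 FPKM in the iGLI2 replicates. Its groups did not overlap, but the log2 fold change of -0.21 did not pass (95% interval from -0.49 to 0.069, adjusted p = 0.248 by limma).

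CCL24 and CCL26, the eotaxins 2 and 3, are ligands of CCR3 that attract eosinophils, and they lie 22.0 kb apart on chromosome 7. CCL24, from 75441114 to 75443033, was listed at 0 in iEV replicate 1 and had 0.570 and 0.263 FPKM in iEV replicates 2 and 3. It had 7.06, 5.46 and 5.26 FPKM in the iGLI2 replicates, so that every iGLI2 library was well above every iEV library. Its log2 fold change was 2.45 (SE 0.19, adjusted p = 8.67e-04 by limma). Since CCL24 passed the filter only through its iGLI2 values, it had to differ, and the p-value is a description. CCL26, from 75398842 to 75419064, had 0.0860 FPKM in iEV replicate 1, was listed at 0 in iEV replicates 2 and 3, and had 1.73, 1.57 and 2.18 FPKM in the iGLI2 replicates. Its mean over the 6 libraries was under the filter, and in the fit without the filter the log2 fold change was 1.45 (SE 0.090, adjusted p = 8.23e-04 by limma). No fold of FPKM is given for them because of the listed zeros. CCL11, the remaining eotaxin, lies on chromosome 17 and was listed at 0 in all libraries, and CCR3 stayed at or under 0.0899 FPKM. Among the other expressed genes and CXCL14 none shared a 50-base stretch with another member apart from CXCL1, CXCL2 and CXCL3. Neither of the 2 promoter windows of CCL24 nor that of CCL26 held GACCACCCA, the GLI consensus recalled here, and nor did those of the other 12 genes, where 0.25% of all genes hold it. TGANTCA, the AP-1 motif that 8.06% of all genes hold, was found for 4 of the 14 genes, CCL24, CXCL8, CXCL11 and CXCL14.

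**Figure D4:**
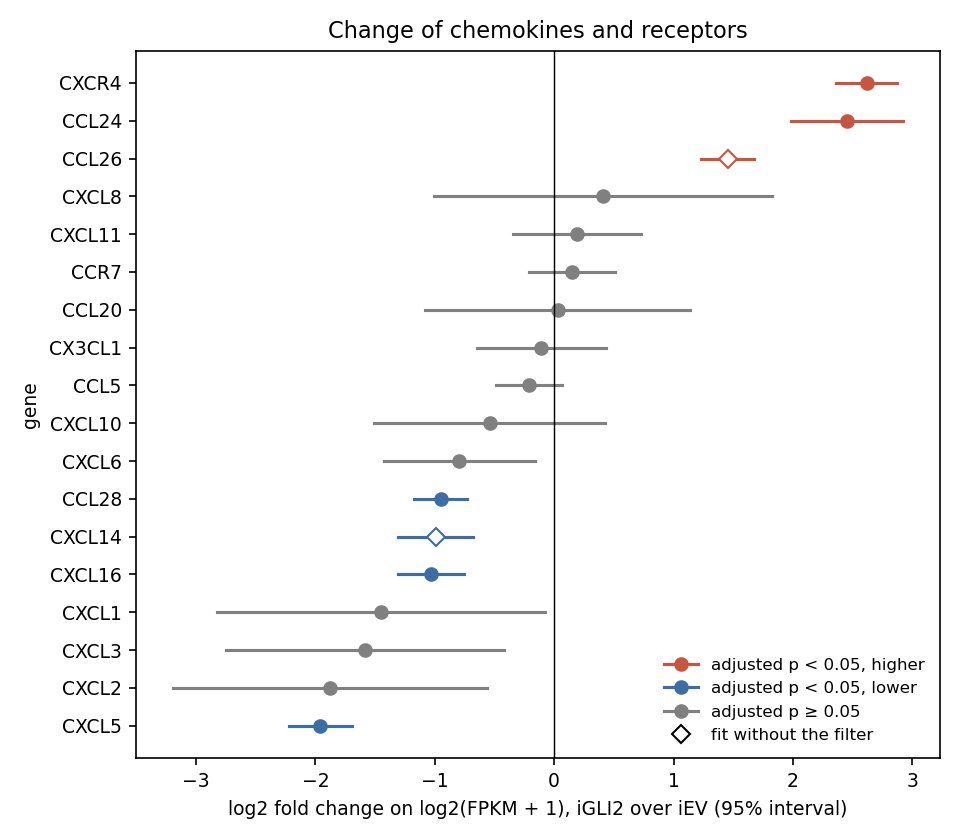
Log2 fold change on log2(FPKM + 1) of iGLI2 over iEV, with its 95% interval from limma, for 18 chemokine and receptor genes, with red for genes that rose, blue for genes that fell and grey for genes that did not pass the adjusted p threshold of 0.05. Filled circles come from the fit with the filter and open diamonds (CCL26, CXCL14) from the fit without it, and CXCL1, CXCL2, CXCL3 and CXCL8 have the widest intervals.

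Receptors were nearly all silent, with 2 of 16 expressed. CXCR4, the receptor of CXCL12 and a widely studied mediator of tumor cell migration, had 0.119, 0.0311 and 0.0331 FPKM in the iEV replicates and 6.18, 5.52 and 4.90 FPKM in the iGLI2 replicates. The groups were far apart, and the iEV values are near 0. CXCR4 was the receptor with the highest level in every iGLI2 library. Its log2 fold change was 2.62 (adjusted p = 1.32e-04 by limma) and ranked 53 of 12493 from the top. Since CXCR4 passed the filter only through its iGLI2 values, it had to differ, and its p-value and rank are a description. The summed level of the 16 receptors was 2.33, 2.82 and 2.60 FPKM in the iEV and 8.30, 10.0 and 8.07 FPKM in the iGLI2 replicates. CXCR4 held most of this sum in the iGLI2 libraries and little in the iEV libraries. CCR7, which guides cells to lymph nodes, had 1.098, 1.04 and 1.12 FPKM in the iEV and 0.979, 1.83 and 1.22 FPKM in the iGLI2 replicates, with overlapping groups and a log2 fold change of 0.15 (95% interval from -0.21 to 0.51, adjusted p = 0.513 by limma).

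The receptors of the expressed ligands were mostly near 0 in the same cells. CXCR1 and CXCR2, which bind the ELR+ ligands, stayed at or under 0.0318 and 0.101 FPKM. CXCR3, for CXCL10 and CXCL11, reached 0.222 FPKM, CXCR6, for CXCL16, reached 0.134 FPKM, and CCR6, for CCL20, reached 0.293 FPKM in their highest libraries. CCR10, for CCL28, had 0.584, 0.944 and 0.677 FPKM in the iEV and 0.276, 0.607 and 0.385 FPKM in the iGLI2 replicates, which overlapped. CCR1, for CCL5, had 0.133, 0.0784 and 0.115 FPKM in the iEV and 0.331, 1.09 and 0.724 FPKM in the iGLI2 replicates, without overlap. CX3CR1, for CX3CL1 and no member by name, stayed at or under 0.0407 FPKM. CXCL12, the ligand of CXCR4, was listed at 0 in all libraries, as were CCR2, CCR8, CXCL13, XCL2, CCL1, CCL3, CCL4, CCL7, CCL8, CCL13, CCL18, CCL19, CCL21, CCL23 and CCL3L1. ACKR3, the atypical receptor once named CXCR7 and no member by name, stayed at or under 0.0552 FPKM.

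Of the 39 silent genes, 22 had a value above 0 and 16 reached 0.1 FPKM in some library. CCL25, a ligand of CCR9, had 0.332, 1.00 and 0.410 FPKM in the iEV and 0.0361, 0.158 and 0.217 FPKM in the iGLI2 replicates, with groups that did not overlap and, without the filter, an adjusted p by limma of 0.136. CCL17 and CCL22, ligands of CCR4, reached 0.684 and 0.585 FPKM, and their groups overlapped. CXCL17 reached 0.496, CCL27 0.205, CCL2 0.167 and CCR4 0.127 FPKM. The remaining genes that reached 0.1 FPKM and had groups apart, CCR1, CXCR5 and XCL1, had higher values in every iGLI2 library than in any iEV library. Below 0.1 FPKM, CCL16, with at most 0.0923 FPKM, had groups that did not overlap and was lower in iGLI2 cells. Thus 3 silent genes were apart as higher and 3 (CXCL14, CCL25, CCL16) as lower. Among all 7542 genes under the filter with a value above 0, 12% were apart as higher and 9.92% as lower. In the fit without the filter, 39 of the 56 genes entered. There CCL26 and CXCR5 passed as higher and CXCL14 as lower beside the 5 genes named above, where 15.1% of all 20035 genes passed.

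Genes that act with chemokines were described from 6 lists, and their counts stand against a background of 10.1% of all genes tested higher and 11.8% lower. Of 8 further receptors, 7 were found under their own or a later name and 2 entered the test, CCRL2 and ACKR4, of which ACKR4 passed the filter only through its iEV values. CCRL2, an atypical receptor that binds chemerin and does not signal through G proteins, had 17.3, 14.2 and 12.8 FPKM in the iEV and 5.28, 3.72 and 4.28 FPKM in the iGLI2 replicates, a log2 fold change of -1.54 (adjusted p = 0.00152 by limma). ACKR4, a scavenger of CCL19, CCL21 and CCL25, had 2.08, 2.26 and 1.79 FPKM in the iEV and 0.353, 0.647 and 0.438 FPKM in the iGLI2 replicates, with a log2 fold change of -1.04 (adjusted p = 0.00289 by limma). In both genes all iGLI2 libraries were below all iEV libraries. Of 4 further ligands, MIF entered the test and did not pass, at 629 ± 74.3 and 618 ± 187 FPKM (SD, n = 3 each).

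In the list of G protein signalling and receptor desensitization, 22 of 28 genes were tested, 3 rose and 2 fell, near the 21.9% of all genes tested that changed in either direction, with a median log2 fold change of 0.021. The genes named are thus single results and not a result of the list. PREX1, a Rac exchange factor driven by Gβγ, rose to 9.71 ± 2.02 FPKM from 1.23 ± 0.224 FPKM (SD, n = 3 each), and its log2 fold change was 2.25 (adjusted p = 7.06e-04 by limma). GRK5, a receptor kinase, rose from 4.61 ± 0.706 to 12.7 ± 1.64 FPKM with a log2 fold change of 1.29, and GNG2, a Gγ subunit, by 0.81 on the log2 scale. ADRBK1, which encodes GRK2, fell by 0.47 on the log2 scale. Scaling moved these counts little, to 4 genes higher and 2 or 3 lower. Among proteases that shed or trim chemokines, 8 of 12 were tested, and 3 rose and 1 fell, where 10.1% and 11.8% of all genes tested did. MMP2 passed the filter only through its iGLI2 values, with a mean of 0.669 FPKM in iEV and 5.68 FPKM in iGLI2 libraries and a log2 fold change of 1.96. The log2 fold change of CTSB was 1.11 and that of MMP14 was 0.44, and CTSS fell by 0.52. ADAM10 and ADAM17, the sheddases of CXCL16 and CX3CL1, did not pass, with log2 fold changes of -0.24 and -0.070.

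In the NF-κB list 14 of 15 genes were tested, and 0 rose and 3 fell, where 11.8% of all genes tested fell, with 3 or 4 lower under the other scalings and a median log2 fold change of -0.47. NFKB2 had 20.7, 27.2 and 26.5 FPKM in the iEV and 9.12, 13.9 and 14.6 FPKM in the iGLI2 replicates, a log2 fold change of -0.95 (adjusted p = 0.0210 by limma). NFKBIE changed by -0.57 and NFKB1 by -0.48 on the log2 scale. RELA, with a log2 fold change of -0.17, and NFKBIA, with -0.54, did not pass. Among 25 upstream cytokines, receptors and interferon factors, 22 were tested, 1 rose and 6 fell, where 10.1% of all genes tested rose and 11.8% fell, with a median log2 fold change of -0.30. Of the receptor genes for type I interferon, TNF and interferon γ, IFNAR2 fell by 0.80, TNFRSF1B by 0.76 and IFNGR1 by 1.20 on the log2 scale. STAT3 fell by 0.30. The other receptor genes of these ligands in the list did not pass, with log2 fold changes of -0.054 for IFNAR1 (adjusted p = 0.669 by limma), -0.27 for TNFRSF1A (0.0818) and -0.21 for IFNGR2 (0.285).

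**Figure D5:**
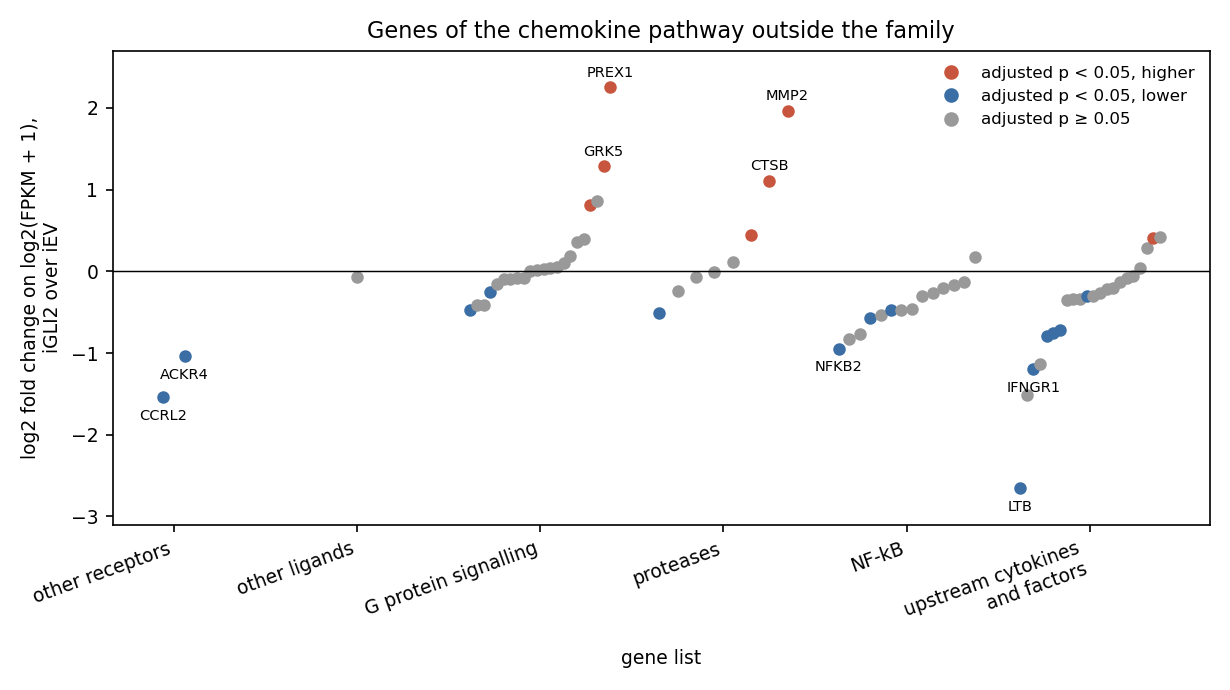
Log2 fold change on log2(FPKM + 1) of iGLI2 over iEV for the tested genes of 6 lists (horizontal axis), each point a gene, with red for genes that rose, blue for genes that fell and grey for those that did not pass. Both further receptors lie below 0, and the G protein list centres near 0 with PREX1 at 2.25. Of the 14 NF-κB genes, 3 lie past the threshold as lower, where 11.8% of all genes tested did.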

How the data were processed

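RNA was extracted with a Qiagen kit and libraries were made with the Illumina TruSeq RNA kit, and the FPKM values were deposited by the authors, after Trimmomatic, TopHat2 alignment (hg19) and Cuffdiff (2.1.1 in the submitters' processing notes). Since the header is silent on units, non-integer values and unequal column totals were read as FPKM. The annotation and the scaling between libraries are not given in the sources used here. Table loci were shifted by 1 base to 1-based starts. Of 27024 rows, 1252 off the primary chromosomes and 330 lower-mean rows of a name were left out, and 4 rows that merge several chemokine names, at most 0.119 FPKM, were not members. All 6 libraries were used, and 0 value columns had no sample.

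The test was limma 3.58.1 (R 4.3.3) with trend on log2(FPKM + 1), without covariates, for genes averaging 1 FPKM or more. All expressed members were named, and in each related list up to 4 called genes with the smallest p. ACKR3, CX3CR1, PF4, PF4V1, PPBP, NFKBIA, TNFAIP3, RELA, ADAM10, ADAM17, IFNAR1, IFNGR2, TNFRSF1A and the silent members under 0.1 FPKM were named after their values were seen. Members, lists and motifs were chosen with earlier results of these data known. The fit was tested on simulated data with independent noise in each library, which does not cover the low values shared by replicate 1 of both groups. Sequences came from RefSeq and GRCh37, read with Python 3.11.15. Alternatives were other scalings, filters, pseudocount, blocks, moderation without the trend, threshold, and each library left out.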

Additional observations from a re-analysis of the deposited data

Results flagged for a closer look

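Of the 22 silent chemokine genes with a value above 0, which the test with the filter did not cover, 3 had a level in every iGLI2 library above every iEV library and 3 (CXCL14, CCL25 and CCL16) a level below. Over all 7542 genes under the filter with a value above 0, 12% were apart as higher and 9.92% as lower. The 3 higher of 22 lie near this 12%, so they are listed as single values and not as a result of the family. CCL26, also under the filter and apart as higher, was expressed by the rule and is not among the 22. CCR1, a receptor of CCL3 and CCL5 that is typical of myeloid cells, averaged 0.109 ± 0.0279 FPKM over the iEV and 0.716 ± 0.380 FPKM over the iGLI2 libraries (SD, n = 3 each). In the fit without the filter its log2 fold change was 0.61 (adjusted p = 0.0589 by limma). CXCR5, the receptor of CXCL13, had 0.0953 ± 0.00500 and 0.182 ± 0.0308 FPKM, with a log2 fold change of 0.11 (adjusted p = 0.0335 by limma). XCL1, a ligand of XCR1, had 0.627 ± 0.0370 and 0.816 ± 0.1502 FPKM, with a log2 fold change of 0.16 (adjusted p = 0.205 by limma). Groups of 3 libraries were too small for the test of single libraries that stand apart.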

How the results depend on the processing

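Of the chemokine genes, 2 were higher and 3 lower in iGLI2 cells. The number higher was 4 with no filter and 0 with a mean of at least 5 FPKM, which leaves out CXCR4 and CCL24, and 2 with any library left out. The number lower was 4 with quantile normalization (CXCL2 added) and 4 with no filter (CXCL14 added). It was 5 with the small RNA genes left out and the libraries rescaled (CXCL2 and CXCL3 added), a setting in which 59.3% of all called genes were higher against 46.0%. With a library left out it was between 3 and 6, the latter without iEV replicate 1. All 5 calls held in every setting that tested the gene, adjusted p under 0.01 included. For CXCR4 and CCL24, which passed the filter only through their iGLI2 values, this is a description and no added support. The fit with the replicate number as a block gave 7 genes lower (CXCL1, CXCL2, CXCL3 and CXCL6 added) and 3 higher (CXCL8 added), and, with no filter as well, a setting chosen after seeing the data, 9 lower and 3 higher, without CXCL8 (adjusted p = 0.0591 by limma). The numbers were not taken to pair libraries, since same-numbered libraries deviated together with correlations of 0.204, 0.0919 and 0.0276, and not every library correlated best with its own number. The sample codes match between the groups for replicates 1 and 2 and not for replicate 3, so a pairing of some libraries is neither stated nor excluded. Over all genes 2742 were called, 3928 with the block, 1095 at an adjusted p under 0.01, and between 1223 (without iEV replicate 2) and 3753 (without iGLI2 replicate 1) with a library left out. With the block, 9 of 14 genes of the NF-κB list and 11 of 22 of the upstream list were lower, where 17% of all genes tested were. No scaling turned the direction of a tested member, and 255 of 270 values of single genes kept their direction, if called, and their side of the threshold, the other 15 now passing it. Depth is unknown, so low values have no stated limit.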
